A study of Macaca fascicularis with 7 samples.

Results

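Genes of the synaptonemal complex and of the chromosome axis beneath it, 10 in number, were followed through the maturation of cynomolgus monkey (Macaca fascicularis) oocytes: SYCP1, SYCP2, SYCP3, SYCE1, SYCE2, SYCE3, TEX12, C7H14orf39 (the monkey name of SIX6OS1), HORMAD1 and HORMAD2. They were taken by name from the 28161 gene rows of the deposited count table, and all 10 were found in it. The libraries were wild-type oocytes of 3 kinds: 2 of germinal vesicle (GV) oocytes, still arrested in prophase of the first meiotic division, 2 of metaphase II (MII) oocytes matured in vivo (IVO MII), and 3 of MII oocytes matured in vitro (IVM MII). GV and IVO MII libraries carry the treatment label control, and IVM MII libraries the label treated. The labels name no animal, age, hormone schedule, culture medium or number of oocytes per library, so the spread between libraries may be technical and every p-value measures only that spread. TEX12 was known from earlier results of these data to differ between IVM and IVO MII. Its values are therefore described with no test, and it is left out of every count of members that passed one.

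The synaptonemal complex is a protein zipper that holds homologous chromosomes together along their length while they recombine. Lateral elements, built on the chromosome axis by SYCP2 and SYCP3, are joined by SYCP1 transverse filaments that meet in a central element made of SYCE1, SYCE2, SYCE3, TEX12 and SIX6OS1, and the HORMA-domain proteins HORMAD1 and HORMAD2 mark axes that have not yet synapsed. In female mammals the complex forms in the fetal ovary and is taken apart before the long arrest of the oocyte, so that GV and MII oocytes are stages after its use. The libraries measured mRNA and not protein.

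Libraries held 22901970 to 29245733 counts. Values are CPM, counts scaled to 1e6 per library after edgeR's TMM correction for RNA composition, and ± is the SD between libraries, with n = 2, 2 and 3 for GV, IVO MII and IVM MII. CPM are relative to the rest of a library, so that less of a transcript, fewer cells that carry it and more of other RNA cannot be told apart. According to the labels, GV data sit in a different folder from the data of all MII libraries, so a folder effect and a stage effect cannot be told apart wherever GV is compared. All 12 oocyte markers looked up, such as GDF9, ZP3 and DDX4, had counts in every group. Their summed levels were 15221 to 16937 CPM in GV, 19805 to 25497 in the IVO MII libraries and 21532 to 23704 in the IVM MII libraries. The sums hide opposite courses. DPPA3 rose from 2997 CPM in GV to 13591 in IVO MII and 9440 in IVM MII on average. FIGLA fell from 88.1 CPM to 8.49 and 18.7. ZP2 was higher in IVM than in IVO MII (3344 against 895 CPM) and OOEP lower (811 against 2489). Calls rest on edgeR's quasi-likelihood test, with p-values adjusted over 16374 tested genes by the Benjamini-Hochberg method and a threshold of 0.05. The read counts of 8 of the 10 members were high enough for that test, and SYCP1 and HORMAD1 were not tested.

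The members differed widely in level. Divided by the length of the gene model, SYCP2 stood first in every group, at 84.9 ± 10.6 CPM per kb for GV, 396 ± 56.1 for IVO MII and 397 ± 27.6 for IVM MII oocytes, above 94.8%, 98.8% and 98.6% of the tested genes. SYCE3 was second in GV (26.1 ± 8.39 CPM per kb) and in IVO MII (108 ± 34.3). In IVM MII the second place went to TEX12 (70.8 ± 50.6 CPM per kb) ahead of SYCE3 (58.4 ± 21.2), a gap smaller than either spread. In GV, TEX12 came after SYCE3 (13.7 ± 2.16 CPM per kb) and next to SYCE1 (11.9 ± 0.602). In IVO MII it also came after SYCE3 (1.97 ± 1.05), next to HORMAD2 (1.55 ± 1.91). TEX12 differed from SYCE1 and from HORMAD2 there by less than the larger spread of each pair. At the low end, SYCP1, SYCE2 and HORMAD1 stayed at or below 0.485 CPM per kb on average in each group. The lateral element gene SYCP2 thus lay far above SYCP1, the gene of the transverse filament.

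**Figure D1:**
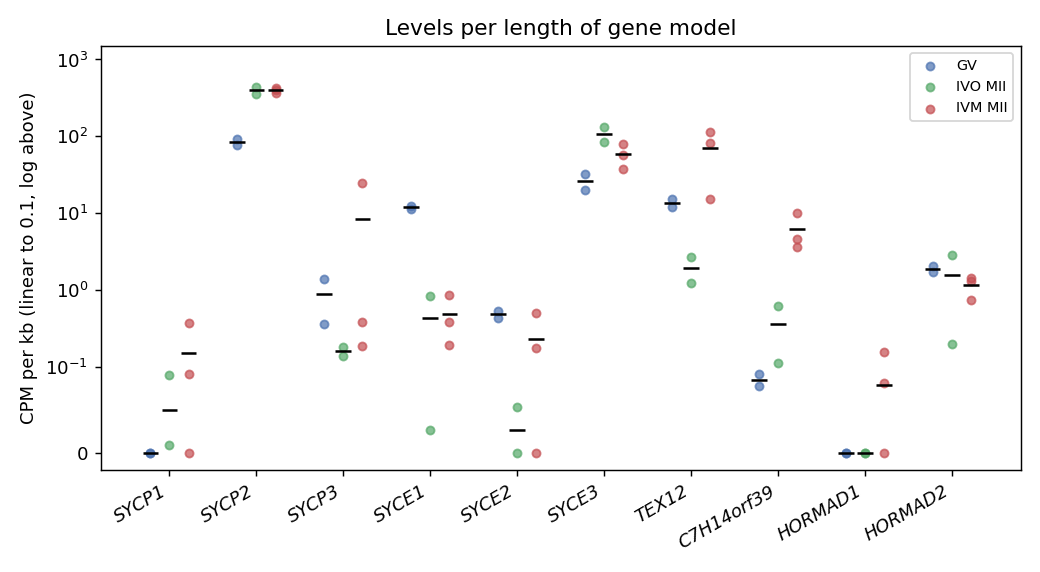
CPM per kb of gene model (vertical axis, linear up to 0.1 and logarithmic above) for the 10 members (horizontal axis), with a point per library, coloured by group, and a bar at the group mean. SYCP2 lies highest in all 3 groups, while SYCP1, SYCE2 and HORMAD1 lie near 0.

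Maturation in the animal was accompanied by a rise of SYCP2 and SYCE3 and a fall of SYCE1. Of the 7 tested members other than TEX12, 2 rose and 1 fell between GV and IVO MII, against 28.1% of all tested genes called in this comparison (14.6% higher and 13.5% lower). The other 4 did not pass the test. The median log2 fold change of the 7 was -0.28, and that of all tested genes -0.16. In oocytes matured in culture, SYCP2 and C7H14orf39 rose and SYCE1 fell relative to GV, again 2 higher and 1 lower of 7, against 36.3% of all genes called (18.5% higher and 17.8% lower). The median of the 7 was 1.17, the value of SYCE3, beside -0.10 for all tested genes. It depended on 1 library. Without IVM MII replicate 2, SYCP3 went from 3.27 to -1.60. The middle value of the 7 was then that of HORMAD2, -0.78, beside -0.12 for all tested genes. The comparisons with GV share the GV libraries. Between IVM and IVO MII edgeR called 0 of the 7, with 1.47% of all tested genes called (0.892% higher and 0.580% lower). At an unadjusted edgeR p under 0.05 there were 2 of the 7, SYCP3 and C7H14orf39, beside 21.1% of all tested genes. DESeq2 and limma voom each called 1 of the 7, C7H14orf39, beside 12.3% and 3.04% of all tested genes. DESeq2 gave no adjusted p for SYCP3 and SYCE2 here, and these count as not called. Groups without overlap were counted too. In IVO MII against GV, 3 of the 7 lay wholly higher and 3 wholly lower (32.0% and 40.8% of all tested genes). These were 3 and 2 in IVM MII against GV (31.5% and 37.5%), and 2 and 1 in IVM against IVO MII (17.8% and 16.0%). Some gaps were slight. SYCP3, counted as higher in IVM than in IVO MII, had 7 and 5 counts in the nearest libraries. C7H14orf39, counted as higher in IVO MII than in GV, had 17 counts in replicate 2 of each.

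**Figure D2:**
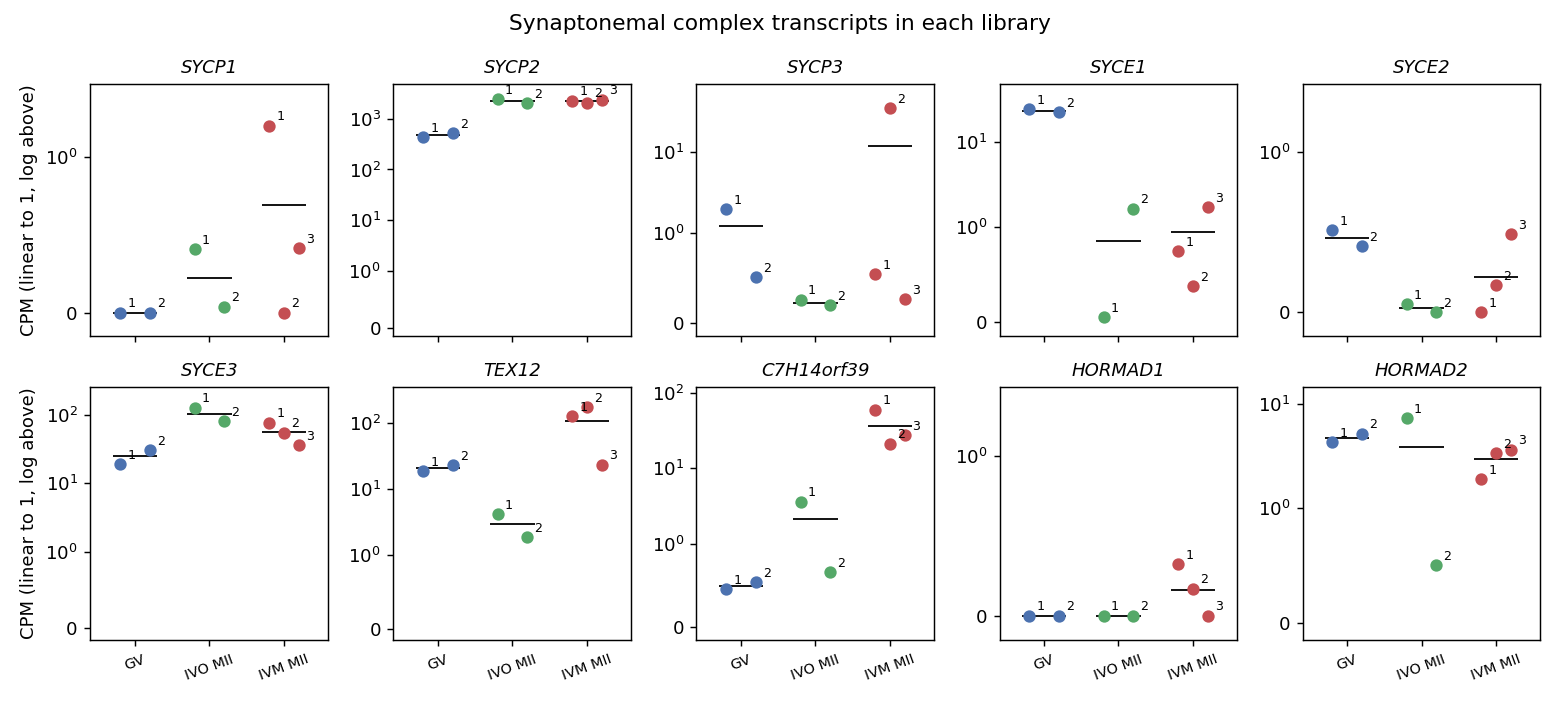
CPM of each member (vertical axes, linear up to 1 and logarithmic above, each panel with its own range) in the libraries of each group (horizontal axis); points are libraries with their replicate number and bars are group means. SYCP2 lies between 1988 and 2432 CPM in all MII libraries, SYCE1 is high in GV alone, and TEX12 and C7H14orf39 are highest in IVM MII.

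Gene positions are those in the deposited table, whose genome build is not named. SYCP2 encodes the large lateral element protein that recruits SYCP3 and binds the axis (chromosome 10, bases 91773646 to 91842912, minus strand, 44 merged exons). Its levels were 432 and 516 CPM in the GV libraries, 2432 and 1988 in IVO MII, and 2230, 2056 and 2364 in IVM MII. All 5 MII libraries lay above both GV libraries. The rise was 4.66-fold in IVO MII (log2 difference 2.22, SE 0.32, edgeR adjusted p = 0.0027) and 4.67-fold in IVM MII (2.22, SE 0.30, edgeR adjusted p = 0.00174). Between both kinds of MII oocyte the groups overlapped, with a log2 fold change of 0.00 (SE 0.28). Its nearest annotated neighbours did not share this course. PHACTR3, on the lower side, went from 5542 and 4095 counts in GV to 353 to 1103 in MII libraries, and FAM217B, 108 bases away on the other side, had at most 42 counts in a library. A locus of unknown function on the opposite strand, LOC107126579, shares 141 exon bases with SYCP2 and had at most 3 counts.

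SYCP3, the partner of SYCP2 in the lateral element (chromosome 11, bases 105475746 to 105486997, minus strand), was scarce except in a single library. It had 1.94 and 0.506 CPM in GV, 0.255 and 0.193 in IVO MII, and 0.537, 34.6 and 0.263 in IVM MII. The high value is that of IVM MII replicate 2, with 819 counts, against 5 to 64 counts in the other 6 libraries. The log2 fold change between IVM and IVO MII was 5.70 (SE 2.20, edgeR adjusted p = 0.189), and without that library it was 0.82 (SE 1.25, edgeR adjusted p = 0.798). Against GV it was 3.27 (SE 1.87) with that library and -1.60 (SE 1.22) without it, so this direction rests on 1 library. The fall from GV to IVO MII, where the groups did not overlap, was not called either (-2.43, SE 2.05, edgeR adjusted p = 0.401).

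SYCP1, which spans the gap between lateral elements as the transverse filament (chromosome 1, bases 111786794 to 111898676, minus strand, 36 merged exons), was at the limit of detection. It had 0 counts in both GV libraries, 8 and 1 in IVO MII and 31, 0 and 11 in IVM MII. A count of 0 allows up to 3 counts, which is 0.0907 and 0.0949 CPM in the GV libraries, and this covers counting error only. The highest value was 1.66 CPM in IVM MII replicate 1, while IVM MII replicate 2 had none. Libraries of IVM MII thus spanned the values of both other groups.

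Among the central element genes, SYCE1 fell (chromosome 9, bases 133073670 to 133093574, minus strand). Its protein anchors the central element next to the SYCP1 ends and binds SIX6OS1. It had 24.3 and 22.6 CPM in GV, 0.051 and 1.66 in IVO MII, and 0.751, 0.380 and 1.73 in IVM MII. Both GV libraries lay far above the 5 MII libraries, whose ranges overlapped between in vivo and in vitro maturation. The fall was 26.8-fold in IVO MII (log2 difference -4.74, SE 1.25, edgeR adjusted p = 0.0235) and 24.3-fold in IVM MII (-4.61, SE 1.05, edgeR adjusted p = 0.0106). The call in IVO MII was lost without GV replicate 1 (edgeR adjusted p = 0.0736) or GV replicate 2 (0.0674). With IVO MII replicate 2 left out, the log2 fold change was -8.73, and the remaining IVO MII library had 1 count. With IVO MII replicate 1 left out it was -3.83, and that in IVM MII was -5.42 with IVM MII replicate 3 left out, both still called. CYP2E1, which lies within the span of SYCE1 on the opposite strand and shares 0 exon bases with it, had 35 to 90 counts in GV and 52 to 2058 in MII libraries, a different course.

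SYCE3, a small central element protein that extends the complex by binding SYCP1 and SYCE1, went the other way (chromosome 10, bases 270350 to 283880, plus strand). It had 19.1 and 30.4 CPM in GV, 126 and 79.8 in IVO MII, and 76.1, 54.6 and 35.8 in IVM MII. The 3 groups did not overlap, in the order GV, IVM MII, IVO MII, although the highest IVM MII library and the lowest IVO MII library were close. By depth alone, IVM MII replicate 3 lay below GV replicate 2. The rise to IVO MII was 4.16-fold (log2 difference 2.05, SE 0.48, edgeR adjusted p = 0.0151). That to IVM MII did not pass the test (1.17, SE 0.44, edgeR adjusted p = 0.067), nor did the difference between both kinds of MII (-0.89, SE 0.42, edgeR adjusted p = 0.26). The call in IVO MII was lost without GV replicate 1 (edgeR adjusted p = 0.134), GV replicate 2 (0.0566) or IVO MII replicate 1 (0.0677). In IVM MII a call appeared without replicate 3 (1.37, edgeR adjusted p = 0.0297) and with the replicate number as a block (1.37, edgeR adjusted p = 0.0375).

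SYCE2 forms the fibres of the central element as a complex with TEX12 (chromosome 19, bases 13130488 to 13150287, minus strand). It had 17 and 13 counts in GV, 1 and 0 in IVO MII, and 0, 4 and 13 in IVM MII, at most 0.514 CPM. Over the group, the ratio of GV to IVO MII was 21.1 (95% counting interval 3.51 to 860). The edgeR test gave no call in any comparison (adjusted p = 0.184, 0.635 and 0.42 for IVO MII against GV, IVM MII against GV, and IVM against IVO MII). GCDH, on the opposite strand of the same span with 0 shared exon bases, had 568 to 763 counts in GV and 13 to 85 in MII libraries. It was thus also lower in MII than in GV, and a part of GCDH in the SYCE2 counts was not tested.

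TEX12, a short coiled-coil protein that assembles with SYCE2 into long fibres, had the pattern for which these genes were taken up (chromosome 14, bases 108153273 to 108158561, plus strand, 6 merged exons, 1543 exon bases). It had 18.8 and 23.5 CPM in GV, 4.18 and 1.89 in IVO MII, and 127, 176 and 23.7 in IVM MII. IVO MII libraries were lowest and IVM MII highest, but IVM MII replicate 3 lay at the level of the higher GV library. As counts these were 620 and 742 in GV, 82 and 49 in IVO MII, and 2374, 4176 and 629 in IVM MII. By depth alone, IVM MII replicate 3 lay below both GV libraries. The log2 fold change was -2.80 from GV to IVO MII, 2.37 from GV to IVM MII and 5.17 from IVO to IVM MII, which is 36.1-fold. With each library left out in turn the last value ranged from 4.62 without IVO MII replicate 2 to 5.85 without IVO MII replicate 1 (-3.49 from GV to IVO MII without the latter). Without IVM MII replicate 3 it was 5.64. The neighbouring genes had few reads: IL18, 2422 bases away, had at most 8 counts in a library, and BCO2, 2378 bases away on the other side, had 70 and 71 in GV, 20 and 56 in IVO MII and 0 to 40 in IVM MII. The annotated genes on either side thus did not share the high counts of TEX12 in IVM MII.

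C7H14orf39, or SIX6OS1, encodes a central element protein that binds SYCE1 (chromosome 7, bases 124713491 to 124794371, minus strand, 23 merged exons, 5846 exon bases). It had 0.454 and 0.538 CPM in GV, 3.62 and 0.656 in IVO MII, and 59.7, 21.3 and 27.3 in IVM MII. The 3 groups did not overlap: all IVM MII libraries lay above all others, and IVO MII replicate 2 lay just above GV. By depth alone, IVO MII replicate 2 lay below GV replicate 2. The rise from GV to IVM MII was 72.1-fold (log2 difference 6.17, SE 0.95, edgeR adjusted p = 0.00241), higher in 3 of 3 libraries, and it was called with each of the 7 libraries left out in turn. From GV to IVO MII the log2 fold change was 2.08 (SE 0.85, edgeR adjusted p = 0.0954; DESeq2 adjusted p = 0.0497). This was 2.85 without IVO MII replicate 2 (edgeR adjusted p = 0.0248) and 0.39 without IVO MII replicate 1 (0.746). Between IVM and IVO MII it was 4.09 (SE 0.85, edgeR adjusted p = 0.0547), short of the threshold. Its size turned on the IVO MII libraries, at 5.77 with replicate 1 left out and 3.23 with replicate 2 left out (edgeR adjusted p = 0.141). It passed with DESeq2 (adjusted p = 1.16e-05), with limma voom (0.0399), with no filter on low counts (edgeR adjusted p = 0.0127), with the replicate block (0.012), without IVO MII replicate 1 (edgeR adjusted p = 0.0356) and without IVM MII replicate 3 (0.0402). It did not pass with upper quartile scaling (edgeR adjusted p = 0.0583), with only the groups compared (0.0917) or with any other single library left out (0.0742 to 0.142). SIX6, which overlaps its span on the other strand with 0 shared exon bases, had at most 3 counts in a library.

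**Figure D3:**
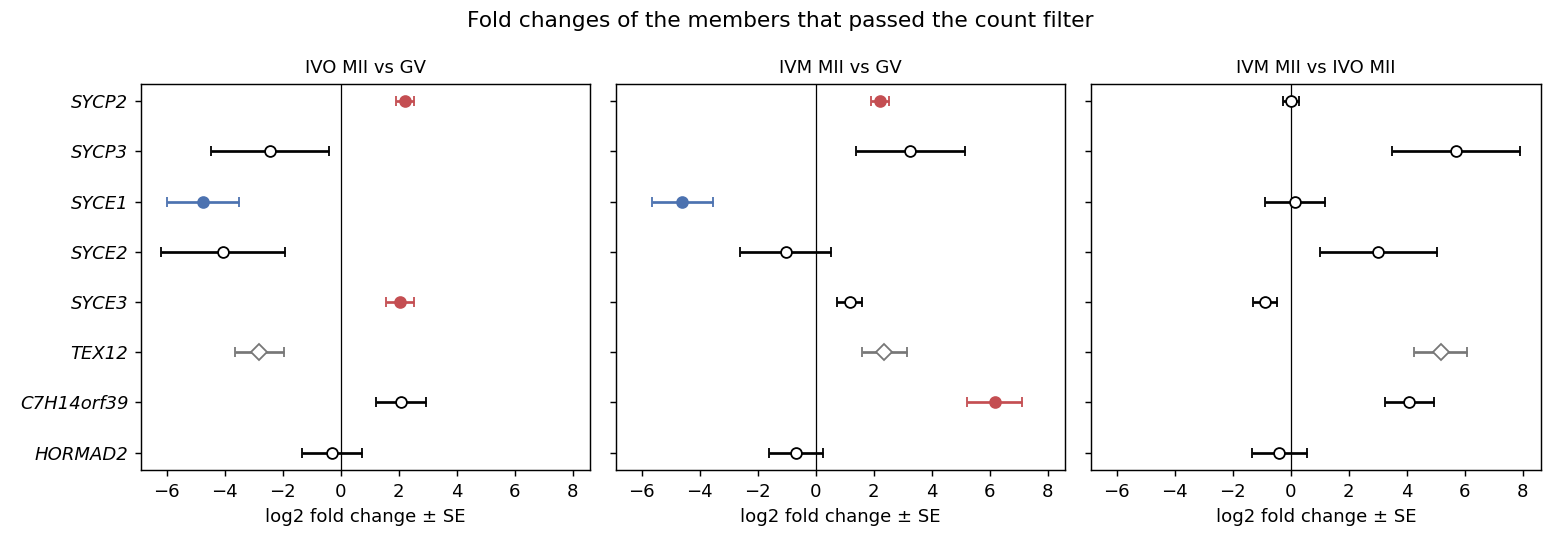
Log2 fold change with its SE (horizontal axis) of the 8 members with enough reads (vertical axis) in the 3 comparisons. The SE was derived from the edgeR test, and the bars of TEX12 are not read as a test. Red and blue filled circles are called higher and lower, open circles are not called, and grey diamonds mark TEX12, which was not tested; TEX12 and C7H14orf39 lie at 5.17 and 4.09 between IVM and IVO MII, with SYCP2 at 0.00.

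The HORMA-domain genes were low. HORMAD2 (chromosome 10, bases 21287961 to 21378451, minus strand) had 4.26 and 5.19 CPM in GV, 7.29 and 0.501 in IVO MII, and 1.88, 3.34 and 3.61 in IVM MII. The IVO MII libraries lay on either side of all others, and all IVM MII libraries lay below GV. Its log2 fold changes were -0.28 (SE 1.04), -0.68 (SE 0.94) and -0.40 (SE 0.94) for IVO MII against GV, IVM MII against GV and IVM against IVO MII, with no call. HORMAD1 (chromosome 1, bases 101323834 to 101345570, plus strand) had 0 counts in the GV and IVO MII libraries and 6, 4 and 0 in IVM MII, at most 0.322 CPM. Its neighbour GOLPH3L, 878 bases away, had 3025 and 3789 counts in GV, 292 and 450 in IVO MII, and 2460, 3308 and 1566 in IVM MII.

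TEX12 and C7H14orf39 thus had their highest levels in IVM MII, but their orders of libraries were unlike. Over the 7 libraries the Pearson correlation of log2(CPM + 1) between them was 0.69. That of TEX12 with SYCP3, whose high value is IVM MII replicate 2 alone, was 0.63, and with SYCE2, its partner, 0.12. With HORMAD2, SYCP2, SYCE1 and SYCE3 it was 0.11, 0.03, -0.08 and -0.23. These values describe 7 libraries in 3 groups that share depth and scaling. Among 6440 genes with a symbol and at least 10 CPM on average, the 5 most like TEX12 were VRK1 (r = 0.993), TAF1A (0.992), C11H12orf49 (0.991), NDUFA5 (0.990) and CTNNB1 (0.986). VRK1 encodes a chromatin kinase, TAF1A a factor of RNA polymerase I, NDUFA5 a subunit of respiratory complex I, and CTNNB1 beta-catenin. NDUFA5, for example, had 33.5 and 43.7 CPM in GV, 10.96 and 6.29 in IVO MII, and 208, 228 and 27.8 in IVM MII. In each of the 5, as in TEX12, IVM MII replicates 1 and 2 were highest and both IVO MII libraries lowest. The 5 were picked by their correlation over these same libraries, so this likeness follows from the choice. IVM MII replicate 3 lay above GV for VRK1 (168 CPM against 111 and 137) and CTNNB1 (458 against 350 and 371), between both GV libraries for TAF1A, and below them for C11H12orf49 and NDUFA5. The 5 genes most like SYCP3 were JADE3 (0.916), NLRP2 (0.912), ZNF507 (0.905), ERP29 (0.854) and TBK1 (0.850). Each was highest in IVM MII replicate 2, which again follows from the choice. NLRP2, a maternal effect gene, had 1046 CPM there and 135 to 336 CPM in the other 6 libraries.

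**Figure D4:**
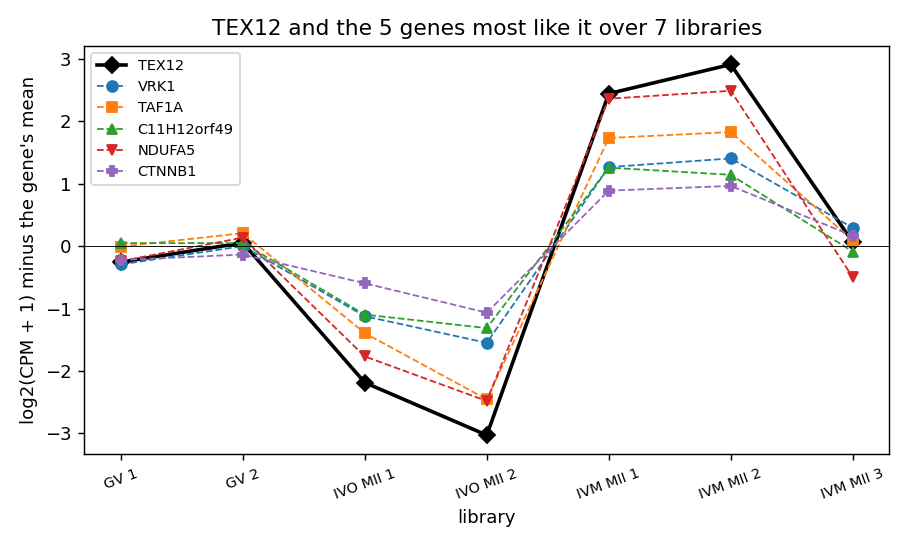
Log2(CPM + 1) minus the gene's own mean (vertical axis) in the 7 libraries (horizontal axis) for TEX12 and the 5 genes with the highest Pearson correlation to it; lines only join the points of a gene. All 6 genes are highest in IVM MII replicates 1 and 2 and lowest in the IVO MII libraries, with TEX12 spanning the widest range.

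The other genes of meiotic prophase were looked up as a list of 50, of which 49 were in the table and 42 were tested. They make and repair the programmed DNA breaks, mature crossovers, hold the axis together and tie telomeres to the nuclear envelope. From GV to IVO MII, 8 rose and 4 fell and 30 were not called (28.1% of all tested genes were called). From GV to IVM MII, 8 rose and 3 fell and 31 were not called (36.3% of all genes). Between IVM and IVO MII, 1 of 42 was called, beside 1.47% of all genes. The medians of the 42 were 0.02, 0.56 and 0.08 on the log2 scale in this order, beside -0.16, -0.10 and 0.00 for all tested genes.

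Among the genes of break formation and strand exchange, members moved both ways. REC114, a partner in the break machinery, fell from 31.1 and 56.0 CPM in GV to 4.18 and 1.35 in IVO MII (log2 difference -3.98, SE 0.71, edgeR adjusted p = 0.00531) and to 2.93 to 6.17 in IVM MII (-3.28, SE 0.59, edgeR adjusted p = 0.00395). PSMC3IP and MND1 encode the paired partners HOP2 and MND1 of the recombinases, and their transcripts went in opposite directions. PSMC3IP fell from 8.77 ± 0.00820 CPM in GV to 0.751 ± 0.629 in IVO MII (-3.52). In IVM MII it had 2.43 ± 0.863 CPM, below GV but not called (-1.85, edgeR adjusted p = 0.0662). MND1 rose from 11.9 ± 1.16 CPM in GV to 70.1 ± 60.2 in IVO MII (2.56) and 126 ± 46.6 in IVM MII (3.40). Without GV replicate 1, GV replicate 2 or IVO MII replicate 1, edgeR no longer called PSMC3IP and MND1 in IVO MII, and the log2 fold changes without IVO MII replicate 1 and 2 were 1.20 and 3.23 for MND1 and -2.88 and -4.83 for PSMC3IP. REC114, at -5.02 and -3.38 in these fits, was called in both comparisons with each library left out in turn.

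Of the crossover genes, SHOC1, which works with SPO16, rose from 0.468 ± 0.277 CPM in GV to 5.23 ± 4.56 in IVO MII (log2 fold change 3.47) and 5.005 ± 2.18 in IVM MII (3.40). It is a low transcript, and its call was lost in IVO MII without either GV library (edgeR adjusted p = 0.187 and 0.0889), without IVO MII replicate 1 (2.08, adjusted p = 0.146) and with limma voom (0.0571). Its log2 fold change there was 4.22 without GV replicate 2, and leaving out IVO MII replicate 2 gave 4.16. In IVM MII it was 4.16 without GV replicate 2, and the call was lost without either GV library (0.163 and 0.0734) and without IVM MII replicate 1 (0.0536). Of the prophase entry genes, YTHDC2, an RNA helicase that drives meiotic entry, rose from 8.74 and 15.3 CPM in GV to 87.9 and 33.9 in IVO MII (2.34) and 63.0 to 99.0 in IVM MII (2.83). Its call in IVO MII was lost without GV replicate 1 or IVO MII replicate 1 (1.48 without the latter), and that in IVM MII without GV replicate 1. Its partner MEIOC had 2 counts in GV and 124 in IVM MII, a ratio of 58.3 (95% counting interval 15.8 to 487). The edgeR adjusted p of MEIOC was 0.048, and it lost its call without either GV library (0.239 and 0.226), without IVM MII replicate 1 (0.0925) or 2 (0.0839), with upper quartile scaling (0.052) and with the replicate number as a block (0.0531).

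The genes that attach telomeres to the nuclear envelope included the list's single call between IVM and IVO MII. SUN1, the inner membrane anchor, rose from 106 and 107 CPM in GV to 859 and 652 in IVO MII (log2 difference 2.83, SE 0.32, edgeR adjusted p = 0.0021) and to 500, 478 and 483 in IVM MII (2.20, edgeR adjusted p = 0.00171). All IVM MII libraries lay below both IVO MII libraries for SUN1, with no call (-0.63, SE 0.27, edgeR adjusted p = 0.222). TERB2, which links TERB1 to MAJIN at the telomere, had 16.03 and 18.9 CPM in GV, 4.08 and 5.78 in IVO MII, and 25.1, 41.7 and 19.3 in IVM MII. Its groups were ordered as those of TEX12, with IVO MII lowest and IVM MII replicate 3 just above GV, or below both GV libraries by depth alone. It fell from GV to IVO MII (-1.82, SE 0.50, edgeR adjusted p = 0.0281) and was higher in IVM than in IVO MII (2.54, SE 0.49, edgeR adjusted p = 0.0483), 5.81-fold. The higher level in IVM MII was no longer called by edgeR when any single library other than IVM MII replicate 3 was left out (adjusted p = 0.0857 to 0.136), with upper quartile scaling (0.0522) or with only the groups compared in the fit (0.0929). The fall in IVO MII was lost without GV replicate 1 (0.0986), GV replicate 2 (0.14) or IVO MII replicate 1 (0.115). The partner MAJIN went from 0.815 and 0.0386 CPM in IVO MII to 5.85, 2.83 and 4.59 CPM in IVM MII, with no call (3.39, SE 1.16, edgeR adjusted p = 0.149). TERB1 stood at 124 ± 8.77 CPM in IVO MII, beside 122 ± 26.2 CPM in IVM MII. SPDYA, an activator of the telomere-bound kinase CDK2, had 2.80 and 2.28 CPM in IVO MII and 8.37, 8.79 and 8.46 CPM in IVM MII (1.75, edgeR adjusted p = 0.107). KASH5, the outer membrane partner of SUN1, was lower in all IVM MII libraries (0.107, 0.423 and 0.752 CPM) than in IVO MII (1.38 and 1.58 CPM), with no call (-1.76, edgeR adjusted p = 0.336). Between IVM and IVO MII the 6 telomere genes thus went in both directions. MAJIN, TERB1, SPDYA and KASH5 were added after their values were seen, to show the whole class.

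**Figure D5:**
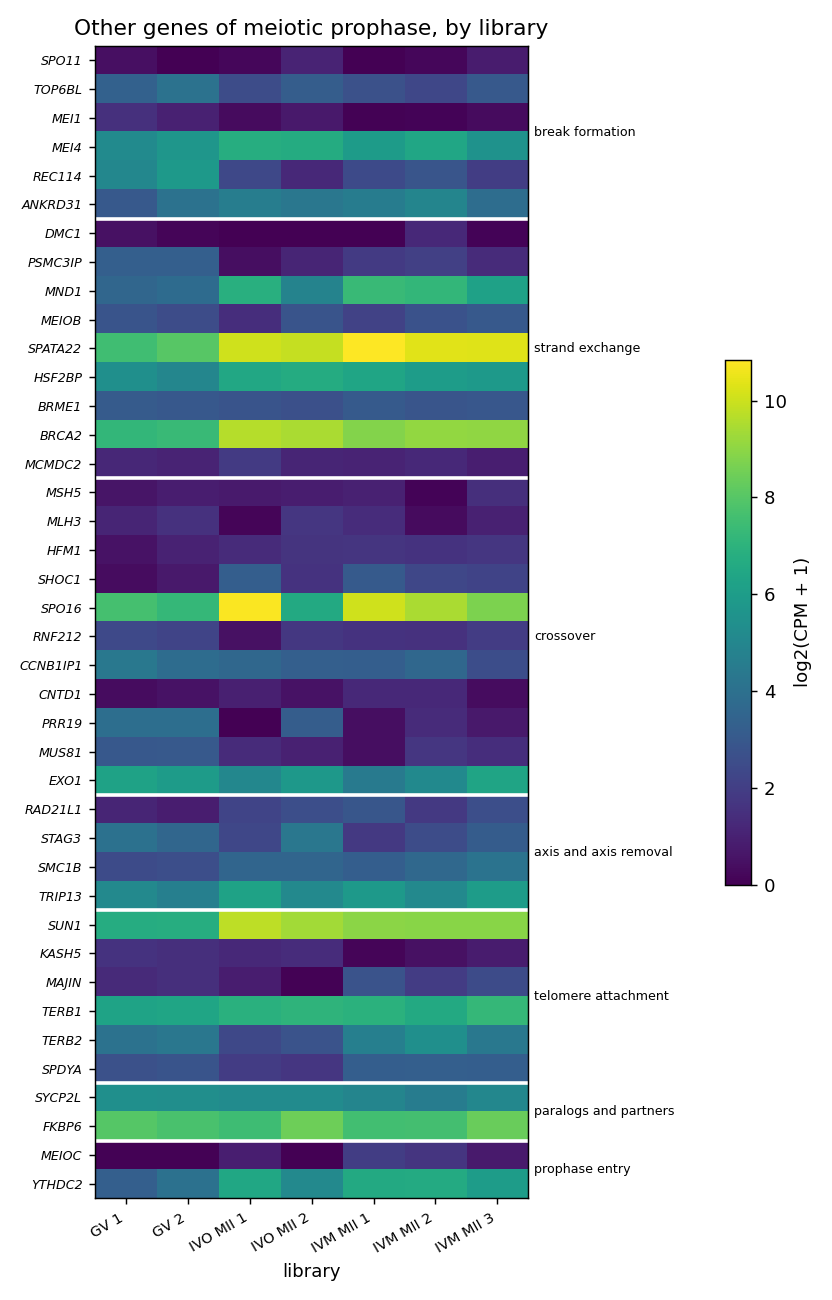
Log2(CPM + 1) (colour scale) of tested genes of the prophase list (rows, grouped by role) in the 7 libraries (columns). Rows such as SUN1, SPATA22 and BRCA2 are brighter in MII than in GV libraries, REC114 is darker, and TERB2 is darkest in IVO MII.

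Markers of the cells around the oocyte also differed between the groups. Summed over 14 cumulus and granulosa genes, the libraries had 18.5 to 19.7 CPM in GV, 64.2 to 109 in IVO MII and 98.2 to 219 in IVM MII. Of the 14, AMH, PTX3 and PTGS2 had 0 counts in all libraries. FSHR, the follicle-stimulating hormone receptor, had 2.21 and 1.04 CPM in GV, 6.01 and 3.32 in IVO MII and 53.5, 30.3 and 21.9 in IVM MII, and TNFAIP6, a matrix gene of expanding cumulus, 55.6 to 149 CPM in IVM MII against 46.1 and 18.2 in IVO MII. Others went the opposite way. CYP19A1, the granulosa aromatase, had 0 counts in all IVM MII libraries and 9.84 and 1.23 CPM in IVO MII. HAS2, the hyaluronan synthase of the cumulus matrix, had 39.4 and 38.6 CPM in IVO MII and 9.72 to 19.5 CPM in IVM MII, and VCAN, a matrix proteoglycan, 4.67 ± 2.69 CPM in IVO MII and 1.69 ± 1.32 CPM in IVM MII. None of these 5 was called by edgeR between IVM and IVO MII (adjusted p = 0.0514 to 0.352). FSHR, TNFAIP6, CYP19A1 and HAS2 had an unadjusted p of 0.00113, 0.0166, 0.00085 and 0.0107, beside 21.1% of all tested genes under 0.05. Against GV, edgeR called FSHR and TNFAIP6 higher and CYP19A1 lower in IVM MII (adjusted p = 0.00224, 0.00489 and 0.0366), beside 36.3% of all tested genes. It called HAS2 and VCAN higher in IVO MII against GV (0.0075 and 0.024), beside 28.1%. The 5 were not called in the other comparison with GV. The summed level of 4 blood and immune genes was at most 1.12 CPM in a library. The part of these marker genes in the values of TEX12, C7H14orf39 and TERB2 was not tested.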

How the data were processed

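Poly(A)-primed, template-switched cDNA of monkey oocytes was amplified by PCR, tagmented and sequenced with paired ends, per the labels' protocols. The authors deposited raw counts per gene. Per the submitters' processing notes, counting used featureCounts 2.0.1, and Bowtie2 2.4.5, DESeq2, SAMtools 1.15.1 and Trim Galore 0.6.7 are also named. The genome build, strand setting and handling of multi-mapped reads are not stated in those sources. If reads were aligned to the genome, Bowtie2 could lose those that cross exon junctions. A transcript with a shortened poly(A) tail can be primed less often, and one with a lengthened tail more often. Coordinates are those of the deposited table. Broken lines (10) were left out.

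All 7 libraries entered 1 fit in edgeR 4.0.16 (glmQLFit and glmQLFTest, TMM, filterByExpr, two-sided, Benjamini-Hochberg over all tested genes), with R 4.3.3, limma 3.58.1, DESeq2 1.42.0, Python 3.11.15 and pandas 2.3.3. The procedure was also run on simulated counts in which every gene had the same spread, so that run does not bear on genes that vary more. The SE of an edgeR log2 fold change was derived from the test and not estimated apart from it. It is the absolute log2 fold change divided by the square root of F, the statistic of the test. Depth sets a floor of 3 counts, 0.0907 to 0.161 CPM in a library. Ratios with 1 to 3 counts have exact 95% counting intervals. Reads carry no molecular identifiers, so these limits cover counting error only. The members, gene lists and markers were chosen with earlier results of these data known. Prophase genes were named by rule: up to 4 called per direction with the largest fold change and at least 1 CPM in the higher group. Some genes that this rule named are not reported here. For pattern, the 5 highest Pearson correlations were named. Alternatives were DESeq2, upper quartile scaling, no filter, limma voom, only the groups compared, each library left out, and a replicate block.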

Additional observations from a re-analysis of the deposited data

How the results depend on the processing

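The number of the 7 tested members called between IVM and IVO MII went from 0 to 1 (C7H14orf39) with DESeq2, no filter on low counts, limma voom or the replicate block (adjusted p = 0.012), where 12.3%, 3.36%, 3.04% and 7.56% of all genes were called, and over single libraries left out it ranged from 0 to 1. Against GV, the 3 calls in IVO MII ranged from 1 to 4 and the 3 in IVM MII from 3 to 4 with a library left out. In the prophase list the 12 calls in IVO MII ranged from 5 to 14, the 11 in IVM MII from 6 to 16 (17 with DESeq2 and 17 with limma voom, which called 43.9% and 45.3% of all genes) and the 1 between IVM and IVO MII from 0 to 1 (3 with DESeq2, 0 with upper quartile scaling, 0 with only the groups compared). The cause was not tested, but a fit with a library left out rests on 6 samples, and where 1 library remains in a group it is assumed to vary like the others.

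The directions that turned were of members with no call, and the cause was not tested. For SYCP2 between IVM and IVO MII the log2 fold change was -0.0401 with DESeq2, -0.12 with upper quartile scaling, -0.0011 with only the groups compared, -0.22 without IVO MII replicate 2 (0.16 when leaving out IVO MII replicate 1), -0.06 without IVM MII replicate 3 and -0.043 with the replicate block. For SYCE1 in the same comparison it was -0.78 without IVO MII replicate 1 (4.03 when leaving out IVO MII replicate 2), -0.66 without IVM MII replicate 3 and -0.30 with the replicate block. For HORMAD2 it was 0.77 with limma voom and 2.55 without IVO MII replicate 1 (-1.39 when leaving out IVO MII replicate 2) in that comparison, and 0.62 without IVO MII replicate 2 (-3.24 when leaving out IVO MII replicate 1) for IVO MII against GV. For SYCP3 in IVM MII against GV it was -1.60 without IVM MII replicate 2 and at most 4.52, without GV replicate 1. TEX12 kept its direction under every alternative run. Of its values, 38 moved by less than 1 SD between libraries (log2 scale) and 1 by more (-3.49 in IVO MII against GV without IVO MII replicate 1). TEX12 was taken up for its difference in these same data, so this steadiness is no support for that difference. DESeq2 gave no adjusted p for 5 member fold changes, of SYCP3 and SYCE2. These fold changes were left out of the alternatives, and the counts of calls took them as not called.

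With upper quartile scaling the all-gene median went from -0.10 to -0.21 (log2) for IVM MII against GV and from 0.00 to -0.11 for IVM against IVO MII. With DESeq2 it went from -0.16 to -0.26 for IVO MII against GV and from -0.10 to -0.24 for IVM MII against GV. Over all genes, the 241 edgeR calls between IVM and IVO MII became 0 without IVM MII replicate 1 or 2 (2703 and 2549 genes at an unadjusted p under 0.05), 22 without IVO MII replicate 2, 1277 without IVM MII replicate 3, 54 with only the groups compared, 497 with limma voom, 731 with no filter, 1238 with the replicate block and 2010 with DESeq2. The 4596 calls in IVO MII against GV became 1484 and 1700 without GV replicate 1 and 2, and the 5949 in IVM MII against GV became 2110 and 2550. The labels give no sign that equal replicate numbers mark a shared animal or day, so the replicate block is given as an alternative only. Deviations of same-numbered libraries from their group means correlated at -0.131 for GV and IVO MII. With 2 libraries in each of these groups, replicates 1 and 2 give the same value by construction. The values were -0.0657 and 0.0635 for GV and IVM MII, and 0.185 and -0.0661 for IVO and IVM MII. The replicate block pairs libraries by the numbers in their titles, and the data column of IVO MII replicate 2 is itself numbered 3, so that this pairing is uncertain.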
